A study of Mus musculus with 2 samples.

Results

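The cells described here are the STRA8-high germ cells of the juvenile mouse testis, the germ cells in which transcripts of Stra8, the retinoic acid-induced gene that licenses entry into meiosis, stood highest. Cells were selected on their measured UMI counts of Stra8 and of germ and Sertoli cell genes. A cell was counted when it had at least 1000 unique molecular identifiers (UMIs, 1 for each captured transcript), at least 500 detected genes and at most 20% mitochondrial UMIs. It also had at least 3 UMIs of the germ cell genes Ddx4 and Dazl together, at least 10 Stra8 UMIs per 10000, and under 10 per 10000 of the Sertoli cell genes Aard, Cst9, Cst12 and Sox9 summed. Any level of the synaptonemal complex gene Sycp1 was allowed. The knockout library held 2 such cells among 332 germ cells and 10864 cells, and the control library held 489 among 3611 germ cells and 11232 cells, so 491 of 22096 cells met the rule.

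Whole testes of C57BL/6 mice aged 13 days were dissociated and profiled by droplet single-cell RNA sequencing with the 10x 3' V3 chemistry, in a study of the constitutive 20S proteasome in spermatogonia. The knockout genotype was Psma7 F/-;Stra8-Cre KI/+, in which Cre recombinase driven from Stra8 acts on the floxed allele in germ cells while the other Psma7 allele is null in every cell. The control genotype was Psma7 F/+, for which the labels name no Cre. Each genotype was 1 library, the number of mice pooled into it was not given, and cells of 1 library are not replicates. No test between groups was therefore run, and the 95% intervals given with the values (exact Poisson for levels, exact Clopper-Pearson for shares) cover counting error only. Because Cre is carried at Stra8 in the knockout and Stra8 also sets the gate, an effect of the Cre allele on the Stra8 count cannot be told apart from that of the loss of Psma7.

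Spermatogonia differentiate under retinoic acid, lose the genes of stem and progenitor cells, gain the receptor Kit, divide by mitosis several times and then replicate their DNA a last time as preleptotene spermatocytes. STRA8 acts with its partner MEIOSIN as a transcription factor on many meiotic genes at that point, while MEIOC and YTHDC2 act on RNA to end the mitotic programme. In leptonema the chromosomes form axes, SPO11 makes programmed DNA breaks, and recombinases repair them while homologues pair and the synaptonemal complex assembles. The 20S proteasome is a barrel of alpha and beta subunits; PSMA7 is the alpha4 subunit, and PSMA8 replaces it in spermatocytes.

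Stretches of 100 bases upstream of transcription start sites are shown because genes that were higher in the STRA8-high cells carried the 8-letter motif CNCCTCAG, which has been described for STRA8 binding, more often than other genes did. They come from RefSeq on the build GRCm38.p6, are written 5' to 3' on the strand of the gene, and have the motif in capitals. M1ap, at chr6:82946765-82946864 (+ strand), and Prss50, at chr9:110857754-110857853 (+ strand) carry it on the opposite strand. Gm4969, the gene of MEIOSIN (Bhmg1 in RefSeq), at chr7:19118345-19118444 (- strand), Prdm9 at chr17:15564355-15564454 (- strand, upstream of 1 of its 2 start sites) and Mgat5b at chr11:116918763-116918862 (+ strand) carry it on the strand of the gene.
M1ap: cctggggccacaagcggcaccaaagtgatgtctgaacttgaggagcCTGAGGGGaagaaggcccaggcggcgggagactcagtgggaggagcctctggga
Prss50: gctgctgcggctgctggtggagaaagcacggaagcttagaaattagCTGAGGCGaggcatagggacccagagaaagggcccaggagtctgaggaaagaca
Gm4969: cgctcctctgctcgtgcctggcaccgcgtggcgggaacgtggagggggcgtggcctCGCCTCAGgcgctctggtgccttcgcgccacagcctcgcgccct
Prdm9: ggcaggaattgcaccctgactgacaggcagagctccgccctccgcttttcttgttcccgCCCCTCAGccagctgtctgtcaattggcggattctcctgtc
Mgat5b: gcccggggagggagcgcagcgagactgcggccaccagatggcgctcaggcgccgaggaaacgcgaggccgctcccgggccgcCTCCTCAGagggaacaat

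The deposited counts held 112746953 UMIs in the knockout library and 146528736 in the control library. The STRA8-high control cells had a median of 14114 UMIs and 4727 genes, close to the median of 14500 UMIs in the 3122 other control germ cells. The 2 libraries shared 29 cell barcodes, and 0 of these belonged to a STRA8-high cell. Markers of several other testis cells were low in the STRA8-high cells. The 3 Sertoli markers not used by the gate (Amh, Clu and Wt1) summed to 29.2 UMIs per 1000000 (CPM), against 2076 CPM in Sertoli-gated cells. Leydig markers summed to 11.3 CPM with Insl3 at 0, macrophage markers to 3.28 CPM and endothelial markers to 9.12 CPM. Peritubular myoid markers summed to 17.4 CPM and interstitial stroma markers to 93.1 CPM, against 98.8 and 297 CPM in the other control germ cells. The 2 T cell markers (Cd3e and Cd3d) went the other way, at 33.3 CPM against 13.0 CPM in the other control germ cells. The 6 markers of pachytene and later cells summed to 71.5 CPM in STRA8-high cells, with Acrv1 at 0, against 80.4 CPM in the other control germ cells and 82.2 CPM in free RNA (barcodes with 10 to 100 UMIs). Scrublet marked 13 of the 489 cells (2.66%) as possible doublets, against 196 of the other control germ cells (6.28%).

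Psma7, the targeted gene, checked the labels. Its level was 86.6 CPM (79.3 to 94.5) in knockout germ cells and 219 CPM (216 to 223) in control germ cells. It was lower in knockout Sertoli-gated cells too, at 88.3 CPM against 230 CPM in control Sertoli-gated cells. The sources used here do not say which exons are removed, so 3' reads need not report the deletion. Both knockout STRA8-high cells had 0 Psma7 UMIs, which their 10101 UMIs together cannot set apart from the control level, since the exact interval of a count of 0 there reaches 365 CPM.

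Germ cells at this stage were almost missing from the knockout library. STRA8-high cells made up 0.602% of knockout germ cells (0.073 to 2.16%) and 13.5% of control germ cells (12.4 to 14.7%). Per 100 Sertoli-gated cells there were 0.028 in the knockout and 12.4 in the control. The shares on either side of this stage differed as well. Germ cells with under 10 Stra8 and under 10 Sycp1 UMIs per 10000 and at least 2 per 10000 of Esx1 and Dmrtb1, transcription factor genes of late differentiating spermatogonia, numbered 3 in the knockout (0.904%) and 789 in the control (21.8%). SYCP1-high, STRA8-low germ cells (Sycp1 at least 10 and Stra8 under 10 per 10000) numbered 14 (4.22%) in the knockout and 823 (22.8%) in the control. The remaining germ cells were 313 (94.3%) in the knockout and 1510 (41.8%) in the control. Shares of this kind cannot tell fewer cells of a stage from more cells of another.

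Of the 2 knockout cells, 1 lay just above the threshold of 10 Stra8 UMIs per 10000. It had 8 Stra8 UMIs among 7867 (10.2 per 10000), and the other had 3 among 2234 (13.4 per 10000). Both had 0 UMIs of Meioc, Mei1, Prss50 and Sycp3. M1ap had 1 UMI in the cell of 7867 UMIs and 0 in the other, and Sycp1 had 0 in that cell and 1 in the other. Rec8, a further gene of the meiotic entry list, had 1 UMI in that cell and 2 in the other. Knockout germ cells were not shallower, with a median of 15052 UMIs in the 330 that were not STRA8-high.

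**Figure D1:**
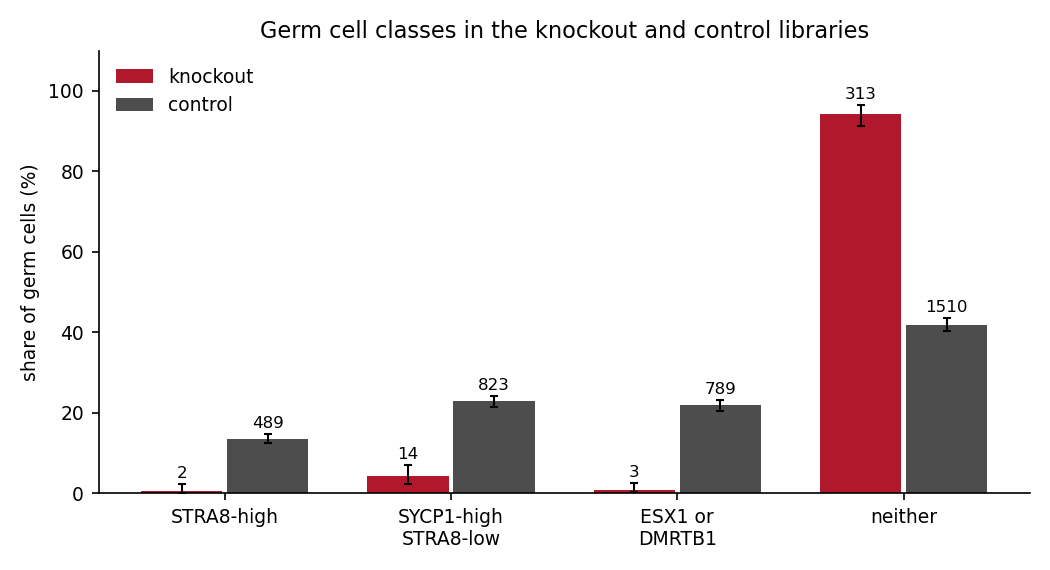
Germ cells of each class (numbers above bars; neither, the remaining germ cells) as a percentage of all germ cells, in the knockout and the control library, with exact 95% intervals. STRA8-high cells were 0.602% of knockout and 13.5% of control germ cells, and each class but the remaining germ cells was a smaller share in the knockout.

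Stra8 itself was used by the rule, so its values describe the gate. Among the 489 control cells it had a minimum of 10.0, a median of 14.1 and a maximum of 41.9 UMIs per 10000, resting on 2 to 108 UMIs a cell (median 20). The gate cut a continuum: 142 cells lay just inside, at 10 to 12 per 10000, and 215 germ cells lay just outside, at 8 to 10. Stra8 was detected in 66.3% of the other control germ cells, at a median of 1.33 per 10000. Stra8 lies at chr6:34920163-34939344 (+ strand, GRCm38).

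The name of the class was compared with 4 other genes fixed as its markers, which the gate did not use. They were chosen with earlier results of these data known, so they are not an independent check of the name. MEIOC keeps meiotic prophase going, M1AP is a testis protein needed for male meiosis, MEI1 is needed for meiotic DNA breaks, and PRSS50 is a testis serine protease. Their sum reached 10 per 10000 in 418 of the 489 STRA8-high cells (85.5%, 82.0 to 88.5%). The same sum was reached in 66.5% of SYCP1-high, STRA8-low cells, in 23.4% of ESX1 or DMRTB1 cells, in 8.21% of the remaining germ cells, and in 11 of 3929 Sertoli-gated cells (0.280%). In the knockout it was reached in 0 of 332 germ cells, which allows up to 1.10%. The threshold on this sum was chosen after the values were seen. Among STRA8-high cells the 4 genes stood apart by Sycp1 level: 32 of the 88 cells with Sycp1 under 5 per 10000 reached the sum (36.4%), and 386 of the other 401 did (96.3%). By these genes the label described most of the gate, and less so the 88 cells with little Sycp1.

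Meioc had 508 CPM in STRA8-high cells (493 to 524), against 467 in SYCP1-high, STRA8-low cells, 240 in ESX1 or DMRTB1 cells and 66.3 in the remaining germ cells. Prss50 had 539 CPM in STRA8-high cells, against 502, 170 and 39.9 CPM in those classes in the same order. For both genes the STRA8-high and the SYCP1-high, STRA8-low cells were the high classes, with a log2 ratio between them of 0.12 (0.07 to 0.18) for Meioc and 0.10 (0.05 to 0.16) for Prss50. M1ap and Mei1 stood higher in the STRA8-high cells alone among the 4 classes. M1ap had 567 CPM there, against 236, 191 and 121 CPM in the classes in that order. Mei1 had 287 CPM there, against 136, 123 and 90.4 CPM. The log2 ratios to SYCP1-high, STRA8-low cells were 1.26 (1.20 to 1.33) for M1ap and 1.08 (0.99 to 1.17) for Mei1.

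Within the class these genes varied from cell to cell. Meioc had a median of 4.98 per 10000 with quartiles of 2.84 and 6.52, M1ap a median of 4.89 with quartiles of 2.31 and 8.62, and Prss50 a median of 5.11 with quartiles of 2.89 and 7.73. With each cell thinned to 5000 UMIs, which kept 412 of 489 STRA8-high cells, Meioc was detected in 86.9% of cells, Prss50 in 87.9%, M1ap in 83.3% and Mei1 in 68.7%. Unthinned, Meioc was detected in 86.9%, Prss50 in 84.7%, M1ap in 87.5% and Mei1 in 81.8% of all 489. Sertoli-gated cells thinned in the same way, which should lack these genes, had a UMI of Meioc in 2.16%, of Prss50 in 1.86%, of M1ap in 1.81% and of Mei1 in 0.903%. In knockout germ cells, of which 94.3% were of the remaining class, the summed levels were 21.9 CPM for Meioc, 0.841 for Prss50, 77.9 for M1ap and 21.5 for Mei1.

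**Figure D2:**
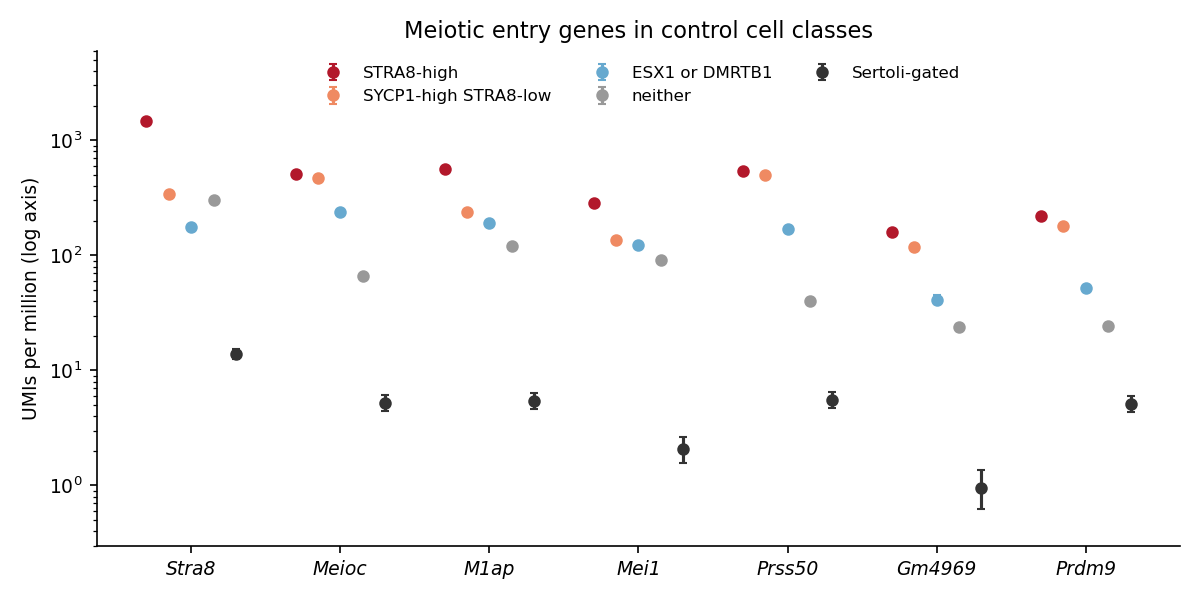
Levels in CPM on a log axis of Stra8, the other markers of the class, the gene of MEIOSIN (Gm4969) and Prdm9 in STRA8-high control cells, the other control germ cell classes (neither, the remaining germ cells) and control Sertoli-gated cells, with 95% Poisson intervals. M1ap and Mei1 were highest in the STRA8-high cells, while Meioc and Prss50 were nearly as high in SYCP1-high, STRA8-low cells.

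Against all other control germ cells, the STRA8-high cells were higher in genes of meiotic entry, which include the class markers, and of the chromosome axis. They were lower in genes of stem and progenitor spermatogonia. A gene was counted as measured with at least 10 CPM in either group, and as past 2-fold at a log2 ratio of 1 or -1. Of 10462 measured genes, 327 (3.13%) were at least 2-fold higher and 2088 (20.0%) at least 2-fold lower. The median gene lay at a log2 ratio of -0.24, and with ratios centred on it the counts were 691 higher (6.60%) and 1529 lower (14.6%). The corresponding shift was -0.23 against ESX1 or DMRTB1 cells and -0.03 against SYCP1-high, STRA8-low cells.

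Of 10 meiotic entry genes besides Stra8, 5 were at least 2-fold higher than in the other germ cells and 0 were lower. The median log2 ratio was 1.06. Of the 5, 4 were the markers, which were chosen with earlier results of these data known. This count and median are therefore not independent of that choice. The other was Gm4969, the gene of MEIOSIN, with 160 CPM in STRA8-high cells (152 to 169) and 51.9 CPM in the other germ cells. Its log2 ratio was 1.63 (1.53 to 1.72). Ythdc2, the RNA helicase partner of MEIOC, had 192 CPM against 130 CPM in the other germ cells, a log2 ratio of 0.56. Rec8, a meiotic cohesin subunit, had 39.9 CPM against 25.1 CPM in the other germ cells. In thinned cells Rec8 was detected in 16.0% of STRA8-high cells, 10.0% of the remaining germ cells and 12.8% of Sertoli-gated cells. Its detection thus differed little between them. Whether the Rec8 UMIs of Sertoli-gated cells came from free RNA was not tested. Rbm46, an RNA-binding partner of the YTHDC2 complex, differed little, with 282 CPM in STRA8-high cells and 257 CPM in the other germ cells.

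Axis and synaptonemal complex genes stood above the other germ cells as a group, although part of that group has already passed this stage. Of 17 measured, 6 were at least 2-fold higher and 0 lower, with a median of 0.80. Hormad1, an axis protein that keeps homologues from repairing on their sisters, had 601 CPM in STRA8-high cells against 249 CPM in the other germ cells, a log2 ratio of 1.27 (1.23 to 1.32). Rad21l, a meiosis-specific cohesin kleisin, had 78.2 CPM against 27.0 CPM in the other germ cells, a log2 ratio of 1.53. Majin, which ties telomeres to the nuclear envelope, had 151 CPM against 59.1 CPM in the other germ cells, a log2 ratio of 1.36. Hormad1, Rad21l and Majin were therefore each past 2-fold.

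Genes of DNA break formation and repair were closer to the background of all genes. Of 30, 4 were at least 2-fold higher and 0 lower, with a median of 0.42. Among them Prdm9, the histone methyltransferase that places recombination hotspots, had 219 CPM in STRA8-high cells (209 to 229) against 70.1 CPM in the other germ cells, a log2 ratio of 1.64 (1.56 to 1.72). Spo11, which cuts the DNA, had 20.7 CPM against 29.6 CPM in the other germ cells, and Meiob, which coats single-stranded DNA during repair, had 46.3 CPM against 50.4 CPM. Neither was higher than in the other germ cells as a whole.

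The genes with the highest ratios to the other germ cells were mostly not meiotic genes by name. Pparg, a nuclear receptor best known from fat cells, had 266 CPM in STRA8-high cells (255 to 278) against 49.2 CPM in the other germ cells, a log2 ratio of 2.44 (2.36 to 2.52). It was detected in 352 of the 489 cells (72.0%), so its level did not come from a few cells. By class Pparg had 266 CPM in STRA8-high cells, against 137 CPM in SYCP1-high, STRA8-low cells, 18.1 CPM in ESX1 or DMRTB1 cells and 2.02 CPM in knockout germ cells. Mgat5b, a glycosyltransferase, had 86.6 CPM against 16.6 CPM in the other germ cells, a log2 ratio of 2.39. Sap25, a subunit of a SIN3 corepressor complex, had 64.7 CPM against 13.6 CPM, and Nudt17, a Nudix hydrolase, 42.3 CPM against 9.10 CPM. Nacad, Flot1, Uckl1 and the long noncoding RNA gene Tslrn1 made up the rest, with log2 ratios of 2.06, 1.99, 1.93 and 2.12.

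Histone variant genes were among the higher groups, with 4 of 11 at least 2-fold higher, 0 lower and a median of 0.81. Hist1h2ba, the testis H2B variant, had 106 CPM in STRA8-high cells against 20.9 CPM in the other germ cells, a log2 ratio of 2.35 (2.22 to 2.48). Hist1h2aa, the testis H2A variant, had 241 CPM against 50.9 CPM in the other germ cells, a log2 ratio of 2.24. H1fx, a linker histone, had 624 CPM against 296 CPM in the other germ cells, a log2 ratio of 1.08. Hist1h2ba and Hist1h2aa were also higher than in SYCP1-high, STRA8-low cells, with 42.3 and 92.5 CPM there. How reads shared by near-identical histone genes were assigned is not given in the sources used here.

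Gzmc and Ccl4, genes of cytotoxic lymphocytes, also had ratios in the top 12, but 183 of 184 Gzmc UMIs and 266 of 273 Ccl4 UMIs came from 1 cell of 48023 UMIs. That cell had 13 UMIs of Ptprc and 12 of Nkg7, leukocyte genes, beside 49 of Stra8 and 52 of Sycp1, and was not marked as a doublet. Without it, the log2 ratios to the other germ cells were -3.45 for Gzmc and -2.36 for Ccl4.

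Genes of undifferentiated spermatogonia were low in the STRA8-high cells. Of 12 measured of 20 in the list, 0 were at least 2-fold higher and 10 lower, with a median of -2.10. Gfra1, the receptor for the stem cell factor GDNF, had 1.95 CPM in STRA8-high cells (1.11 to 3.16) against 42.2 CPM in the other germ cells. Zbtb16, a transcription factor of progenitors, had 17.3 CPM against 154 CPM in the other germ cells, a log2 ratio of -3.15. In knockout germ cells these genes stood at 285 CPM for Gfra1 and 319 CPM for Zbtb16. The remaining class made up 94.3% of knockout and 41.8% of control germ cells, so class make-up and genotype cannot be told apart here. The lowest ratios beyond that list included Glis3, a zinc finger transcription factor (8.88 CPM in STRA8-high cells, 196 CPM in the other germ cells), and Rspo2, a WNT agonist (0.729 CPM, and 23.4 CPM in the other germ cells). Glis3 was at 8.77 CPM in ESX1 or DMRTB1 cells, so it was low before this stage.

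Genes of differentiating spermatogonia were mixed, with 1 of 12 at least 2-fold higher, 7 lower and a median of -1.06. Kit had 72.7 CPM in STRA8-high cells against 112 CPM in the other germ cells, a log2 ratio of -0.62 (-0.75 to -0.50). Sohlh1, a transcription factor of differentiation, had 42.8 CPM against 93.0 CPM, and Dmrt1, which holds off meiosis in spermatogonia, had 142 CPM against 327 CPM in the other germ cells. The gene past 2-fold on the higher side was the X-linked homeobox gene Rhox13, with 218 CPM against 95.2 CPM in the other germ cells. Thus Kit, Sohlh1 and Dmrt1 were each lower in STRA8-high cells.

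**Figure D3:**
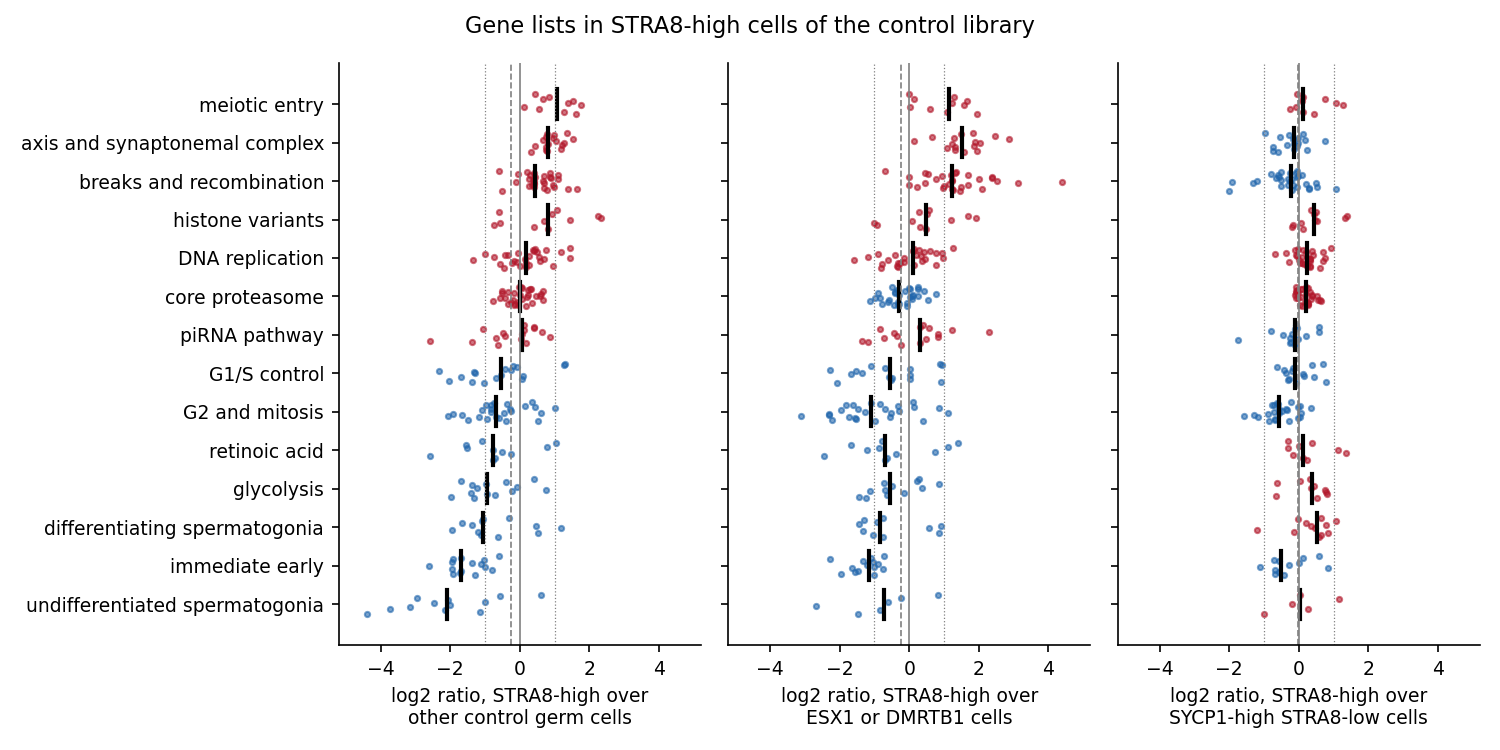
Log2 ratios of measured genes in each gene list, STRA8-high cells over the control class named in each panel (points, genes, red or blue where the list's median is above or below 0; black bar, median; dashed line, median of all measured genes; dotted lines, 2-fold). Meiotic entry genes (class markers included) and axis genes lay above the median of all genes against other germ cells, and undifferentiated and immediate early genes lay below it.

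Cell cycle genes were described by phase. Of 29 DNA replication genes, 3 were at least 2-fold higher than in the other germ cells and 2 lower, with a median of 0.19. Ccne2, the cyclin that starts S phase, had 247 CPM in STRA8-high cells against 90.6 CPM in the other germ cells, a log2 ratio of 1.45 (1.37 to 1.52). Rrm2, which makes deoxynucleotides, had 199 CPM against 73.4 CPM, and Prim1, the DNA primase, 175 CPM against 77.6 CPM in the other germ cells. Summed over the list, the median STRA8-high cell had 47.1 UMIs per 10000, against 40.7 in ESX1 or DMRTB1 cells, 41.4 in SYCP1-high, STRA8-low cells and 29.9 in the remaining germ cells.

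Of 25 genes of G2 and mitosis, 1 was at least 2-fold higher and 6 lower than in the other germ cells, with a median of -0.69; the 6 lower (of 25) are near the 20.0% of all measured genes. Summed over the list, the median STRA8-high cell had 30.8 UMIs per 10000, against 37.7 in ESX1 or DMRTB1 cells, 38.9 in SYCP1-high, STRA8-low cells and 25.1 in the remaining germ cells. Plk1, a mitotic kinase, had 8.88 CPM in STRA8-high cells (6.96 to 11.2), against 76.7 CPM in ESX1 or DMRTB1 cells and 26.7 CPM in SYCP1-high, STRA8-low cells. Ccnb1, the mitotic cyclin, had 39.4 CPM against 183 and 63.8 CPM in those classes, and Aurkb, a kinase of the chromosomal passenger complex, 12.3 CPM against 61.5 and 22.9 CPM. The higher gene was Kif23, a kinesin of cytokinesis and of the germ cell bridge, with 424 CPM against 209 CPM in the other germ cells, a log2 ratio of 1.02 (0.96 to 1.07). Plk1, Ccnb1 and Aurkb were thus lower in STRA8-high cells than in the classes on either side. Of 17 genes of G1 and S control, 2 were at least 2-fold higher and 7 lower; the higher pair were the CDK4 and CDK6 inhibitor genes Cdkn2c, with 66.4 CPM against 27.8 CPM, and Cdkn2d, with 101 CPM against 41.0 CPM in the other germ cells.

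Retinoic acid genes were mixed: of 11 measured of 19, 1 was at least 2-fold higher and 4 lower, with a median of -0.76 that was 0.78 when genes under 50 CPM were left out. The higher gene was Rdh10, a retinol dehydrogenase that makes retinal, with 55.1 CPM in STRA8-high cells against 26.8 CPM in the other germ cells. Aldh1a2, which makes retinoic acid from retinal, had 87.9 CPM against 51.4 CPM in the other germ cells. Crabp1, a cytosolic retinoic acid-binding protein, had 94.8 CPM against 163 CPM in the other germ cells.

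Immediate early genes were low, with 0 of 15 at least 2-fold higher and 12 lower, at a median of -1.69. Egr1 had 27.7 CPM in STRA8-high cells against 107 CPM in the other germ cells, and Jun 35.7 CPM against 117 CPM. Both genes, transcription factor genes induced within minutes by many stimuli, were high in the free RNA of the control library, at 437 CPM for Egr1 and 586 CPM for Jun. With 10% of the UMIs subtracted as free RNA the median was -8.14, since several members then stood at 0. The part of free RNA in these ratios was not tested.

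Genes of the p53 response were 0 of 14 at least 2-fold higher and 5 lower, with a median of -0.65. Trp53 had 24.1 CPM in STRA8-high cells against 68.1 CPM in the other germ cells, and its target Ccng1 had 16.4 CPM against 47.7 CPM. Glycolysis genes were 0 of 14 at least 2-fold higher and 6 lower, with a median of -0.95. Interstitial cell genes were 10 of 12 lower at a median of -2.01, and Sertoli cell genes 2 of 5 lower at a median of -0.58. DNA methylation genes were 2 of 8 lower and 0 higher, with a median of -0.51. The piRNA genes had 3 of 16 lower and a median of 0.05, and germline RNA-binding genes had 2 of 12 lower and a median of -0.02. Of all measured genes, 20.0% were at least 2-fold lower and 3.13% higher, with a median of -0.24. The lower shares of the DNA methylation, piRNA and germline RNA-binding lists were near that of all genes. Of 2 measured pachytene genes, 0 were past 2-fold.

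The proteasome was the pathway targeted in the study. Psma7 was lower in the STRA8-high cells of the control than in the other control germ cells, at 146 CPM (137 to 154) against 231 CPM, a log2 ratio of -0.66 (-0.75 to -0.58). Across classes it was at 146 CPM in STRA8-high cells, against 322 CPM in ESX1 or DMRTB1 cells, 257 CPM in the remaining germ cells and 95.1 CPM in SYCP1-high, STRA8-low cells. The STRA8-high cells thus lay between the classes next to them. Psma8, its spermatocyte counterpart, had 21.8 CPM in STRA8-high cells, against 20.8, 44.5 and 31.3 CPM in those classes in the same order. The 31 other subunits of the constitutive proteasome had a median log2 ratio of 0.01 to the other germ cells, with 0 higher and 0 lower by 2-fold. The 15 measured genes of special proteasomes, which include immunoproteasome subunits and activators, had 0 higher and 2 lower, with a median of -0.35. Of all measured genes, 3.13% were higher and 20.0% lower by 2-fold.

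The ESX1 or DMRTB1 cells are the nearest class before the STRA8-high cells. Against them, most axis, synaptonemal, break and repair genes were at least 2-fold higher in STRA8-high cells. Of 9921 measured genes, 686 (6.91%) were at least 2-fold higher and 1545 (15.6%) lower; centred on the median gene these were 1064 (10.7%) and 972 (9.80%). Axis and synaptonemal genes were 14 of 16 at least 2-fold higher, with a median of 1.52, and break and repair genes 19 of 30, with a median of 1.24; 0 of either list were 2-fold lower. Sycp3, an axis protein, had 1076 CPM in STRA8-high cells against 277 CPM in ESX1 or DMRTB1 cells, a log2 ratio of 1.96 (1.90 to 2.02). Dmc1, the meiotic recombinase, had 549 CPM against 170 CPM, a log2 ratio of 1.69, and Meiob 46.3 CPM against 2.19 CPM, a log2 ratio of 4.38 (3.84 to 5.02). Msh5, a stabiliser of recombination intermediates, had 127 CPM against 24.4 CPM in ESX1 or DMRTB1 cells.

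Other genes with high ratios in this comparison were Nacad (27.5 CPM in STRA8-high cells, 0.893 CPM in ESX1 or DMRTB1 cells) and Stxbp5l, a tomosyn family gene (316 CPM, and 30.2 CPM in ESX1 or DMRTB1 cells). Mitotic genes were 13 of 25 at least 2-fold lower and 1 higher, with a median of -1.10. The lowest ratio was that of Zfp286os, with 1.46 CPM in STRA8-high cells (0.754 to 2.55) against 187 CPM in ESX1 or DMRTB1 cells and 16.1 CPM in SYCP1-high, STRA8-low cells. By its name this RNA lies opposite Zfp286. Whether the counting used strand is not given in the sources used here, so it is not known whether its reads were kept apart from those of its partner. Cyclin D1 (Ccnd1) had 65.3 CPM against 276 CPM in ESX1 or DMRTB1 cells, a log2 ratio of -2.08. Meiotic entry genes, which include the class markers, were 6 of 10 at least 2-fold higher, with a median of 1.15. DNA replication genes were 1 of 28 higher and 2 lower.

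The SYCP1-high, STRA8-low cells were taken as the nearest class after the STRA8-high cells, and here far fewer genes differed. That class was uneven. Its cells had Sycp3 quartiles of 2.58 and 27.5 UMIs per 10000, against 5.13 and 14.1 in STRA8-high cells. The counts below compare summed levels, which average over such cells. Whether the class mixes stages was not tested. Of 9313 measured genes, 145 (1.56%) were at least 2-fold higher and 266 (2.86%) lower; centred on the median gene these were 165 (1.77%) and 248 (2.66%). Axis and synaptonemal genes were 0 of 17 past 2-fold in either direction with a median of -0.15, and DNA replication genes 0 of 29 with a median of 0.22. Of the 30 break and repair genes, 1 was at least 2-fold higher and 4 lower. Spo11 had 20.7 CPM in STRA8-high cells (17.7 to 24.0) against 83.6 CPM in SYCP1-high, STRA8-low cells, a log2 ratio of -2.01 (-2.26 to -1.78). Meiob had 46.3 CPM against 177 CPM in SYCP1-high, STRA8-low cells, a log2 ratio of -1.93. Spo11 and Meiob thus stood lower in STRA8-high cells than in the class after them and above the class before them.

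Of 10 meiotic entry genes, 2 were at least 2-fold higher in STRA8-high cells than in the SYCP1-high, STRA8-low cells, M1ap and Mei1. Both are class markers, which were chosen with earlier results of these data known. Flot1, a membrane raft protein gene, had 44.3 CPM in STRA8-high cells against 12.9 CPM, Sap25 64.7 CPM against 19.9 CPM, Plxna2, a semaphorin receptor gene, 24.8 CPM against 7.59 CPM, and Npnt, an extracellular matrix gene, 46.6 CPM against 15.3 CPM. The lowest ratios included genes known from later stages of sperm formation. Rsph1, a radial spoke gene of the sperm tail, had 1.09 CPM in STRA8-high cells against 41.6 CPM in SYCP1-high, STRA8-low cells, a log2 ratio of -5.17 (-6.39 to -4.31). Meig1, needed to build sperm, had 2.55 CPM against 24.8 CPM, and Zfy2, a Y-linked zinc finger gene, 10.5 CPM against 51.1 CPM in SYCP1-high, STRA8-low cells.

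Major histocompatibility genes appeared among the high ratios over ESX1 or DMRTB1 cells. H2-D1 had 86.7 CPM in STRA8-high cells against 6.98 CPM in those cells, and H2-Ab1 41.8 CPM against 2.27 CPM. H2-K1, examined after these values were seen, had 615 CPM in STRA8-high cells, against 124 CPM in ESX1 or DMRTB1 cells, 894 CPM in SYCP1-high, STRA8-low cells, 69.7 CPM in the remaining germ cells and 17.2 CPM in knockout germ cells. B2m, the class I light chain, had 27.1 CPM in STRA8-high cells (23.7 to 30.9), against 14.8 CPM in ESX1 or DMRTB1 cells (12.7 to 17.1), 24.5 CPM in SYCP1-high, STRA8-low cells and 33.0 CPM in the remaining germ cells. Of the class II partners, H2-Aa had 0.243 CPM and Cd74 had 0 UMIs in STRA8-high cells. Macrophage markers summed to 3.28 CPM in STRA8-high cells and 8.43 CPM in the other germ cells. How reads shared by H2-K1, H2-D1 and their close relatives were counted is not given in the sources used here.

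The STRA8-high cells differed among themselves by Sycp1 level. The cells were cut into bins of Sycp1 under 5 (88 cells), 5 to under 20 (383 cells) and at least 20 per 10000 (18 cells). These bins are ranges of 1 transcript and not cell types, and their median depth differed, at 5870, 15090 and 7168 UMIs from low to high. Stra8, whose range was cut by the gate, stood at 1294, 1489 and 1475 CPM from low to high. Meioc stood at 150, 557 and 624 CPM, Prss50 at 140, 596 and 571 CPM, and Gm4969 at 46.6, 174 and 262 CPM. For these genes the step lay between the lowest and the middle bin.

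Axis and recombination genes followed the same order. Sycp3 stood at 391, 1161 and 1591 CPM from low to high, Hormad1 at 171, 655 and 921 CPM, and Msh5 at 26.8, 140 and 204 CPM. Spermatogonial genes ran the other way: Uchl1, a ubiquitin hydrolase of spermatogonia, stood at 958, 78.1 and 29.1 CPM, Sohlh1 at 195, 21.9 and 5.83 CPM (1 UMI in the highest bin), and Kit at 172, 59.8 and 23.3 CPM. Ccnb1 stood at 217, 14.5 and 17.5 CPM, while the whole list of G2 and mitosis genes summed to 34.8, 34.3 and 39.6 UMIs per 10000 from low to high. Psma7 stood at 349, 118 and 64.1 CPM, the lowest bin being near the level of ESX1 or DMRTB1 cells.

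Between the outer bins, 1983 of 10594 measured genes (18.7%) were at least 2-fold higher in the cells with at least 20 Sycp1 per 10000 and 2973 (28.1%) lower, on 18 against 88 cells. With the larger upper bin of at least 10 per 10000 (244 cells), an alternative chosen after seeing the data, 1146 of 10215 genes (11.2%) were higher and 2808 (27.5%) lower. Axis and synaptonemal genes other than Sycp1 were 13 of 16 at least 2-fold higher in this comparison, with a median of 1.76, and genes of differentiating spermatogonia 6 of 11 lower, with a median of -1.71. The constitutive proteasome list had 0 of 31 higher and 9 lower, with a median of -0.63. Psme2, a proteasome activator gene, had 0 UMIs in the 18 cells and 166 CPM in the bin under 5, at least 9.47-fold lower against a limit of 3 counts over the bin.

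**Figure D4:**
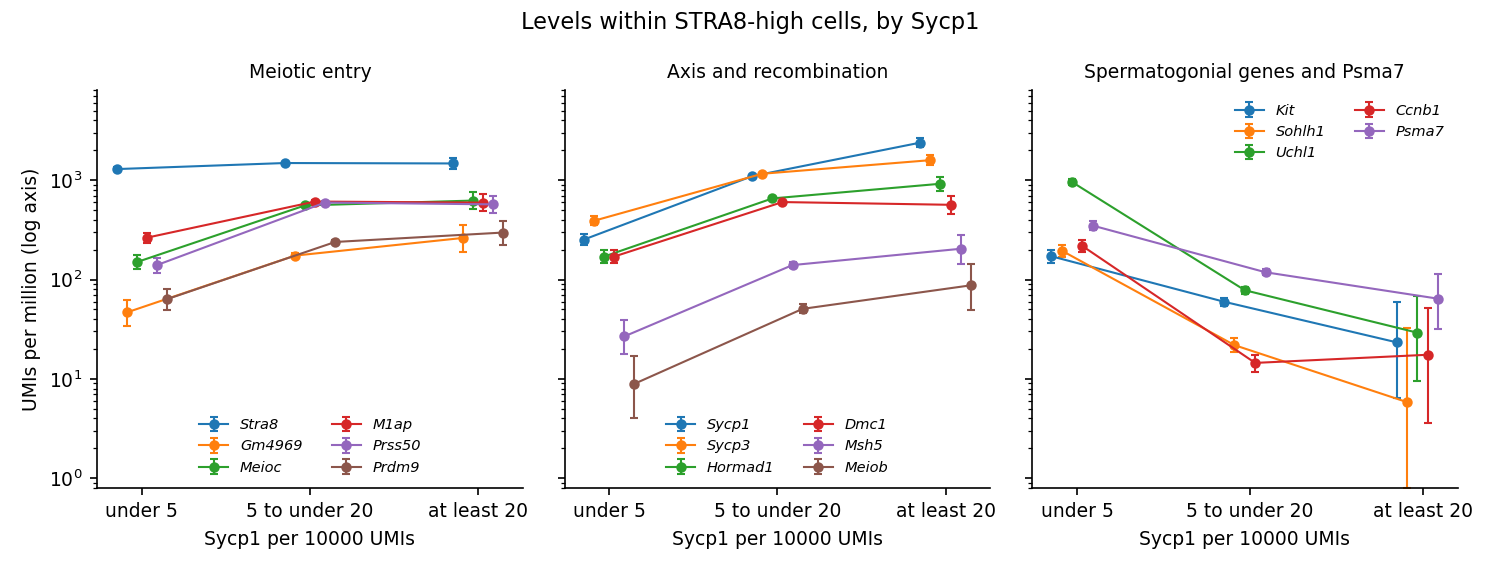
Levels in CPM on a log axis of selected genes in STRA8-high control cells in 3 bins of Sycp1 (under 5, 5 to under 20 and at least 20 per 10000; 88, 383 and 18 cells), with 95% Poisson intervals; Sycp1 itself sets the bins. Sycp3, Hormad1 and Msh5 stood higher and Uchl1, Sohlh1 and Kit lower with more Sycp1, and the range of Stra8 was cut by the gate.

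Across the 412 cells with at least 5000 UMIs, Sycp1 per 10000 had a Spearman rho of 0.50 with Sycp3, of 0.28 with the summed genes of G2 and mitosis, of -0.48 with the summed genes of differentiating spermatogonia and of -0.30 with Psma7. Stra8, its range cut by the gate, had a rho of 0.33 with the summed histone variants, of 0.27 with the summed meiotic entry genes and of 0.25 with Prss50. These are descriptions over cells of 1 library that share depth and free RNA.

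The motif CNCCTCAG was searched on both strands in the 300 bases that run from 250 before to 50 after RefSeq start sites. It was found in 72 of 269 genes at least 2-fold higher in STRA8-high cells than in the other germ cells (26.8%), in 11.7% of genes within 2-fold, in 8.19% of genes at least 2-fold lower and in 2465 of all 27025 genes (9.12%). In windows rather than genes the share of all promoters was 2609 of 32851 (7.94%). The E-box CACGTG, searched in the same way, was found in 7.81% of the higher genes, 12.6% of those within 2-fold and 14.0% of the lower genes. The cell cycle motif TTTCCCGC was found in 3.72%, 2.94% and 1.74% of those sets and TTTGGCGC in 0.743%, 1.36% and 0.993%. No overlap between motifs was removed.

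By role, 4 of 9 meiotic entry genes with a promoter entry had a CNCCTCAG match: Gm4969, M1ap, Prss50 and Rbm46. Stra8, Meioc and Mei1 had none in these 300 bases. Of the sequences shown above, the match of M1ap begins 111 bases before the start site, that of Prss50 164 or 167 bases before its 2 start sites, that of Gm4969 44 bases, that of Prdm9 41 bases and that of Mgat5b 18 bases. Axis genes had a match in 5 of 16, break and repair genes in 3 of 23, DNA replication genes in 3 of 22 and immediate early genes, which were lower, in 5 of 14. A match is a run of letters and not a site of binding.

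**Figure D5:**
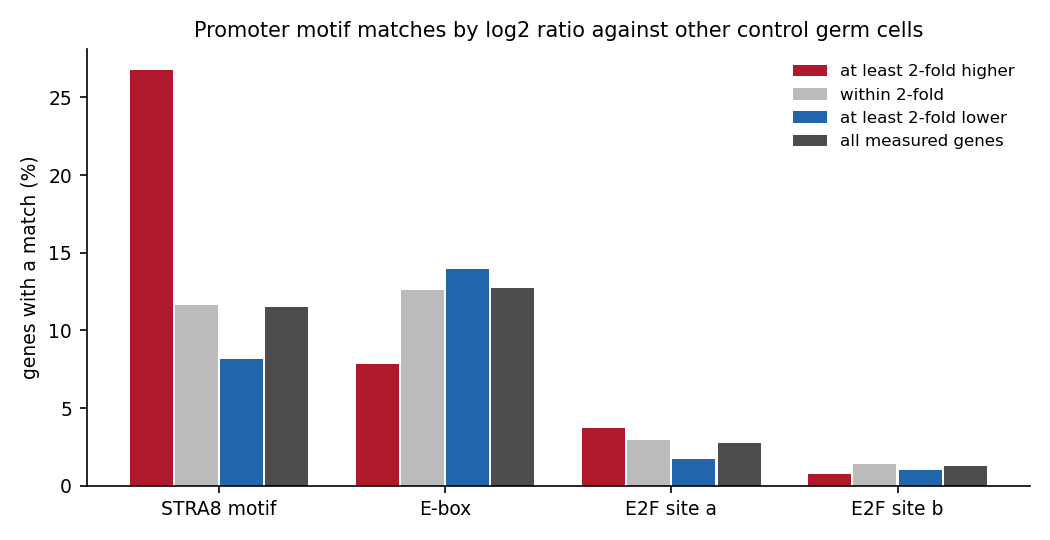
Percentage of genes with a match to each of 4 motifs in the 300 bases from 250 before to 50 after a start site, by ratio of STRA8-high cells to the other control germ cells. CNCCTCAG was found in 26.8% of genes at least 2-fold higher and 8.19% of those at least 2-fold lower, and CACGTG in 7.81% and 14.0%.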

How the data were processed

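The 10x libraries, 1 per genotype, were analysed from the raw count matrices deposited by the authors, which hold whole-number UMI counts of 32285 genes. Per the file headers they were made with Cell Ranger 7.1.0, and the submitters' processing notes name the build mm10. The members and gene lists used here were chosen with earlier results of these data known. Cells and classes were cut by the thresholds given in the text; doublets were scored with Scrublet in scanpy 1.11.5 and kept. In the knockout library Scrublet's own threshold marked 1 cell, so the control threshold was used there, which marked 266. For each class, UMIs of its cells were added up per gene and scaled to CPM. Log2 ratios had 0.5 added to each count, with exact conditional intervals. Python 3.11.15, numpy 2.4.6, scipy 1.17.1 and pandas 2.3.3 were used. The comparison with other control germ cells was run on simulated data of 9769 genes. Past 2-fold were 100 of 100 genes changed by a log2 of 2 and 100 of 100 changed by 1.5. Of 9569 unchanged genes, 0 were past 2-fold. Spread between cells beyond counting error, as seen for Gzmc and Ccl4, was not tested. Named were list members and the 12 highest and 12 lowest ratios against other germ cells (8 in the other comparisons) at 20 CPM or more, leaving out gate genes and unnamed gene models. Free RNA was taken from barcodes with 10 to 100 UMIs. Positions are from GENCODE M21 (GRCm38), which held 32158 of the gene IDs, and promoters are from RefSeq. Alternatives changed the cell filters, the Stra8 and Sertoli thresholds, doublets, free RNA, cell weighting, centring and the CPM minimum. Some genes that the naming rule admits are not reported here.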

Additional observations from a re-analysis of the deposited data

How the results depend on the processing

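No paired analysis was possible because each genotype has 1 library and no test was run. Of 142 alternative values of the counts and shares, 107 stayed within 1.5 times or the interval of the value reported. With Stra8 at least 20 per 10000 there were 0 STRA8-high cells in the knockout (0%) and 64 in the control (1.77%); with at least 5 there were 10 (3.01%) and 1170 (32.4%). With mitochondrial UMIs at most 10% the control share was 16.1%. Stra8 at least 20 gave 628 genes 2-fold higher against other control germ cells, 2455 lower against ESX1 or DMRTB1 cells, and 317 higher and 990 lower against SYCP1-high, STRA8-low cells. Between the outer Sycp1 bins it gave 4160 higher and 807 lower, on 1 cell against 13. Centring on the median gene gave 691 higher against other germ cells, and 1064 higher and 972 lower against ESX1 or DMRTB1 cells. A minimum of 1 CPM gave 512 higher and 5483 lower against other germ cells, 1228 and 3492 against ESX1 or DMRTB1 cells, and 638 and 1136 against SYCP1-high, STRA8-low cells. A minimum of 50 CPM gave 214 and 415, 447 and 453, and 32 and 50 in those comparisons, and 1175 and 1129 between the bins. Subtracting 10% free RNA gave 270 higher against SYCP1-high, STRA8-low cells. Of alternatives chosen after seeing the data, leaving out cells with Sycp1 under 5 gave 428 lower against the same cells, and bins of at least 10 against under 5 gave 1146 higher. Single genes that reversed sign were few. With Stra8 at least 20, log2 ratios against other germ cells were -1.71 for Gzmc and -2.94 for Ccl4, against ESX1 or DMRTB1 cells -0.48 for Ccl4, against SYCP1-high, STRA8-low cells -3.22 for Gzmc and -0.035 for Ccl4, and between the bins 2.63 for Trim71 and 2.63 for Lats2. Without the cell holding most of their UMIs, Gzmc had -3.45 and Ccl4 -2.36 against other germ cells, and Gzmc -0.15 and -4.96 against ESX1 or DMRTB1 and SYCP1-high, STRA8-low cells. The cause was not tested in the other cases. Depth limits the 18-cell bin, where 3 counts are 17.5 CPM, and the knockout, with 2 cells. Of 21 list medians, 6 turned sign under some alternative against other germ cells, 3 against ESX1 or DMRTB1 cells and 9 against SYCP1-high, STRA8-low cells. The last were axis, undifferentiated, differentiating, G1 and S, retinoic acid, DNA methylation, germline RNA-binding, special proteasome and immediate early genes; axis genes had 0.08 with Stra8 at least 20 and -0.15 as reported, undifferentiated -1.12 and 0.03, and differentiating -0.14 with Sycp1 under 5 left out and 0.52.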

Other observations

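X-linked genes were chosen for this description after their values were seen. They took 2.66% of UMIs in STRA8-high cells, against 2.59% in SYCP1-high, STRA8-low cells, 2.32% in ESX1 or DMRTB1 cells and 2.14% in the remaining control germ cells. Against the other control germ cells, 34 of 394 measured X-linked genes (8.63%) were at least 2-fold higher, and 293 of 10043 autosomal genes (2.92%). Against ESX1 or DMRTB1 cells these were 50 of 378 (13.2%) and 636 of 9518 (6.68%), and against SYCP1-high, STRA8-low cells 8 of 367 (2.18%) and 137 of 8921 (1.54%). At least 2-fold lower were 53 X-linked (13.5%) and 2033 autosomal genes (20.2%) against the other germ cells, 32 (8.47%) and 1512 (15.9%) against ESX1 or DMRTB1 cells, and 16 (4.36%) and 246 (2.76%) against SYCP1-high, STRA8-low cells. Cited1, a transcriptional coactivator gene, had 406 CPM in STRA8-high cells against 133 CPM in the other germ cells, Hprt, a purine salvage gene, 296 CPM against 142 CPM, and Trap1a, a tumour antigen gene, 225 CPM against 90.1 CPM. Several of the higher X-linked genes belong to families of near-identical copies (Rhox, Xlr, Magea), for which the assignment of shared reads is not given in the sources used here.

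Cd3e, a T cell receptor component, had 33.1 CPM in STRA8-high cells, against 31.6 CPM in SYCP1-high, STRA8-low cells, 10.6 CPM in ESX1 or DMRTB1 cells and 4.44 CPM in the remaining germ cells. Cd3d, its T cell partner, had 2 UMIs in all the STRA8-high cells.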
